A study of Homo sapiens with 12 samples.

Results

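The genes described here make the protein machinery that copies DNA: the factors that license and fire replication origins, the primase and polymerases, the sliding clamp with its loader and the Okazaki fragment enzymes, and factors that put new DNA back into chromatin. The list holds 42 genes named for these roles, and it was chosen with earlier results of these data known. A probe set that matches a single gene symbol was present for 41 of them, out of 11963 genes measured. UHRF1 had no such probe set. Where several probe sets stood for a gene, the brightest on average was used. The members fall into 12 genes of the origin step, 9 of primase and polymerases, 16 of clamp, loader and fork, and 4 of chromatin.

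RNA came from MDA-MB-231 cells, a long-established tumour line from human breast that lacks hormone receptors, after transduction with lentiviral particles that carry a short hairpin RNA (shRNA). There were 4 groups of 3 biological replicates, with 1 Affymetrix array each: HDAC5 shRNA, with scramble shRNA as its control, and LSD1 shRNA, with a further scramble shRNA set tagged for LSD1. The enzyme HDAC5 belongs to the class IIa deacetylases, while LSD1, encoded by KDM1A, takes methyl groups off histone lysines. All groups are the same line carrying a hairpin. The number of hairpins per target, any selection of transduced cells, the days after transduction and what separates replicates were not stated in the labels used here. P-values therefore measure the spread between these arrays, which may be technical.

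Replication starts from origins that are loaded with the helicase in G1 by the origin recognition complex (ORC) with CDC6 and CDT1, and are fired in S phase by the kinase CDC7 with its partner DBF4. Polymerase alpha with primase lays down primers, polymerase epsilon extends the leading strand and polymerase delta the lagging strand, held on DNA by the ring-shaped clamp PCNA, which replication factor C (RFC) loads. Many of these genes are known targets of E2F transcription factors and peak around the entry into S phase, while others are made at a steady level through the cycle. Cultured tumour lines divide rapidly and express the whole set. RNA here was taken from whole cultures, so more cells in S phase and more transcript per cell cannot be told apart.

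Values are log2 signals as deposited, and a change is the mean of shRNA arrays minus the mean of scramble arrays of the same experiment, with limma's standard error (SE) and Benjamini-Hochberg adjusted p over all 11963 genes. A gene was called changed at an adjusted p under 0.05. The targets went the way of the labels. HDAC5 had 6.17, 6.19 and 6.50 with HDAC5 shRNA, against 7.56, 7.42 and 7.22 with scramble (change -1.11, SE 0.11). KDM1A had 6.48, 6.81 and 6.60 with LSD1 shRNA, against 9.61, 9.76 and 9.78 with scramble (-3.08, SE 0.11). All 6 genes chosen to mark the line (VIM, CD44, KRT8, KRT18, EGFR and CAV1) were above the array median on all 12 arrays. No blood marker of 5 measured was. Of 8 luminal markers, 3 were above the median on every HDAC5 scramble array, and 4 on every array of each other group. Of 8 fibroblast and endothelial markers, 1 was above the median in both groups of the HDAC5 experiment and 0 in the LSD1 experiment. Arrays of a group correlated at 0.991 or more. Replicate 2 of LSD1 shRNA stood apart for the replication genes, as described with that comparison.

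With HDAC5 shRNA, nearly the whole replication machinery was higher than in its scramble arrays. Of the 41 members, 37 rose and 1 fell, where 21.3% of all genes were called higher and 23.2% lower. The median change was 0.98 for the members and -0.02 for all genes. In 20 members the rise was at least 2-fold, which 1.66% of all genes reached. All 3 HDAC5 shRNA arrays lay above all 3 scramble arrays for 38 members, against 24.1% of all genes, and below them for 1 member, against 26.6%. The replicates were tight: the SD of a member over 3 arrays had a median of 0.05 with HDAC5 shRNA and 0.07 with scramble.

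**Figure D1:**
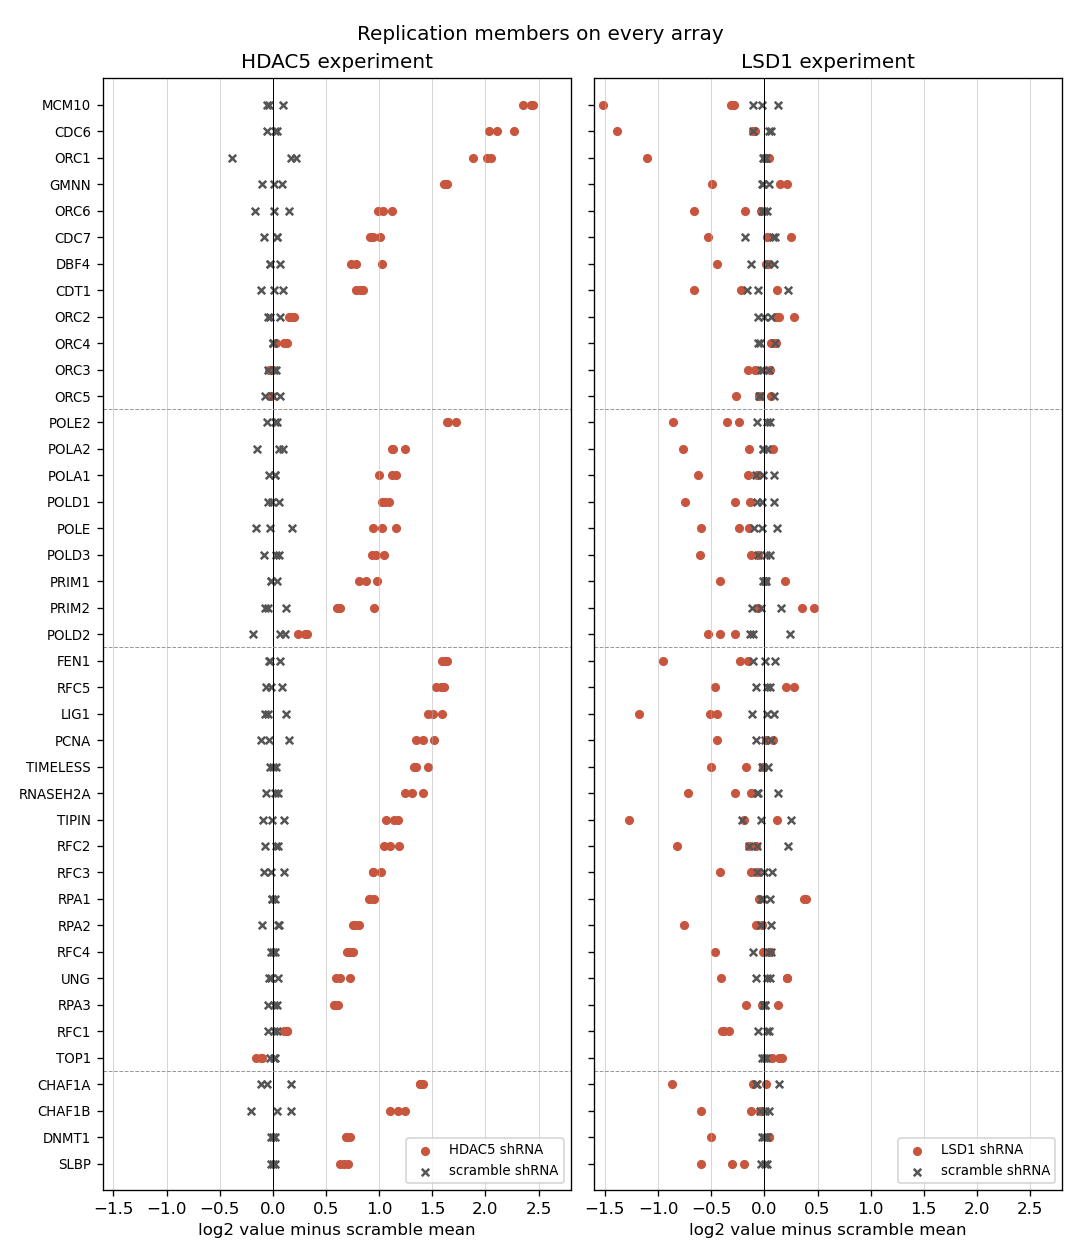
Log2 value of each of the 41 members on every array, minus the mean of the scramble arrays of the same experiment (x axis); rows are genes, ordered by their change with HDAC5 shRNA inside each step (origin, primase and polymerase, clamp with loader and fork, chromatin; dashed lines part the steps). Circles are shRNA arrays and crosses scramble arrays, 3 each; in the HDAC5 panel the circles of 38 members lie right of all crosses, and in the LSD1 panel 1 circle of most genes, replicate 2, lies far to the left.

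At the origin step 9 of 12 genes rose, with a median of 0.90, and this step held both the largest and the smallest changes of the list. MCM10, which joins the helicase as the origin fires, had log2 values of 10.44, 10.35 and 10.42 with HDAC5 shRNA, against 8.09, 7.94 and 7.96 with scramble. The groups were far apart, and the change of 2.41 (SE 0.05, adjusted p = 1.88e-09) is 5.31-fold. CDC6, the loader that helps ORC place the helicase, had 9.73, 9.80 and 9.97 with HDAC5 shRNA, against 7.73, 7.64 and 7.72 with scramble. That is a change of 2.14 (SE 0.07, adjusted p = 1.11e-08), and a further probe set of CDC6 gave 2.09.

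Within ORC, the complex that marks origins, subunits went separate ways. ORC1, the ATPase subunit that comes and goes with the cell cycle, had 7.43, 7.57 and 7.60 with HDAC5 shRNA, against 5.72, 5.77 and 5.17 with scramble (change 1.98, SE 0.14, adjusted p = 1.80e-06). ORC6, the subunit least tightly bound to the rest, had 9.39, 9.52 and 9.44, against 8.41, 8.23 and 8.55 (1.05, SE 0.08). The core subunits between them moved little. ORC3 had 9.48, 9.45 and 9.44 with HDAC5 shRNA, against 9.43, 9.49 and 9.51 with scramble, and the groups overlapped. Its change of -0.02 had a 95% interval of -0.12 to 0.08, so a rise like that of ORC6 lies outside it.

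ORC5 (-0.02, interval -0.12 to 0.08) and ORC4 (0.09, adjusted p = 0.0974) did not pass either. A further probe set of each did, at 0.20 for ORC5, which had another that did not (0.07), and at 0.36 for ORC4, and ORC4 passed with the mean of its probe sets (0.22). ORC2 rose by 0.17 (adjusted p = 0.014), a call lost in 4 of the other settings tried, 3 of which gave adjusted p of 0.087 in 1 fit of all 12 arrays, 0.0631 without scramble replicate 1 and 0.0529 without HDAC5 shRNA replicate 3. The 6 subunits thus ran from -0.02 to 1.98.

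Licensing is held in check by geminin, which binds CDT1. GMNN, the geminin gene, had 11.14, 11.16 and 11.15 with HDAC5 shRNA, against 9.61, 9.42 and 9.54 with scramble, a change of 1.63 (SE 0.05) and 3.08-fold. CDT1 itself had 6.65, 6.60 and 6.67, against 5.92, 5.84 and 5.71, which is 0.81 (SE 0.07). Inhibitor and target thus both rose, without overlap between groups. The origin kinase subunits CDC7 (0.96, SE 0.05) and DBF4 (0.85, SE 0.07) rose by amounts whose 95% intervals overlap.

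All 9 genes of primase and polymerases rose, with a median of 1.04. POLE2, the second subunit of polymerase epsilon, led them with 10.39, 10.47 and 10.38 with HDAC5 shRNA, against 8.77, 8.69 and 8.78 with scramble (change 1.67, SE 0.05, adjusted p = 6.44e-09). POLE, the catalytic subunit, had 7.93, 7.84 and 8.06, against 7.08, 6.75 and 6.87 (1.04, SE 0.09). The 4 genes of polymerase alpha and primase lay close together, with POLA2 at 1.17 (SE 0.08), the catalytic POLA1 at 1.09 (SE 0.06), the primase catalytic subunit PRIM1 at 0.89 (SE 0.05) and the large primase subunit PRIM2 at 0.73 (SE 0.10). PRIM2 was the most uneven of them, with 7.44, 7.77 and 7.41 with HDAC5 shRNA, against 6.77, 6.74 and 6.93 with scramble.

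In polymerase delta, the catalytic POLD1 (1.06, SE 0.05) and POLD3 (0.98, SE 0.06) rose by similar amounts and POLD2 rose less. POLD2, the subunit that ties the others together, had 9.12, 9.19 and 9.20 with HDAC5 shRNA, against 8.9999, 8.95 and 8.70 with scramble. The groups did not overlap, and its change was 0.29 (SE 0.08, 95% interval 0.12 to 0.45). The call did not hold in 1 fit of all 12 arrays (adjusted p = 0.0815), nor without HDAC5 shRNA replicate 2 (0.052) or 3 (0.0561).

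Clamp, loader and fork genes had a median change of 1.04, with 15 of 16 higher and 1 lower. FEN1, the nuclease that trims Okazaki fragment flaps, had 12.08, 12.05 and 12.09 with HDAC5 shRNA, against 10.44, 10.53 and 10.42 with scramble (change 1.61, SE 0.04, adjusted p = 2.29e-09). LIG1, the ligase that seals the fragments, had 8.87, 8.91 and 9.001, against 7.53, 7.36 and 7.34 (1.52, SE 0.07). PCNA, the clamp on which both act, had 11.94, 12.05 and 11.88, against 10.68, 10.42 and 10.49 (1.43, SE 0.07). RNASEH2A, which helps to take ribonucleotides out of DNA, rose by 1.32 (SE 0.06).

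The clamp loader repeated the split seen in ORC. RFC1, the large subunit particular to the PCNA loader, had 9.14, 9.11 and 9.13 with HDAC5 shRNA, against 9.01, 9.04 and 8.96 with scramble. Its change of 0.12 (95% interval 0.02 to 0.23, adjusted p = 0.0487) was at the edge of the threshold. It passed with the mean of the probe sets and with dim genes left out, and the call was lost in the other 10 settings, where adjusted p reached 0.164. A further probe set of RFC1 gave 0.21 and passed, and another gave 0.13 and did not. RFC5, a small subunit that other loaders share, had 10.73, 10.69 and 10.76, against 9.13, 9.09 and 9.23 (1.57, SE 0.05), although of its 2 further probe sets 1 gave 1.63 and 1 did not pass (0.12). RFC2 (1.11, SE 0.05), RFC3 (0.97, SE 0.05) and RFC4 (0.72, SE 0.04) lay between, and the 95% intervals of these 3 do not reach that of RFC1.

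The 3 subunits of RPA, which coats single-stranded DNA, kept within a narrower range. RPA1, the large subunit, had 11.88, 11.89 and 11.93 with HDAC5 shRNA, against 10.97, 11.00 and 10.96 with scramble (0.92, SE 0.03), with RPA2 at 0.78 (SE 0.05) and RPA3 at 0.59 (SE 0.04). A further probe set of RPA1 gave 1.17. TIMELESS and TIPIN, partners that steady the fork, rose by 1.38 (SE 0.06) and 1.13 (SE 0.06), although a further probe set of TIMELESS gave 0.34. UNG, which takes uracil out of DNA, rose by 0.65 (SE 0.05). TOP1, the topoisomerase that unwinds supercoils in transcription as well as in replication, was the member that fell. It had 11.78, 11.82 and 11.82 with HDAC5 shRNA, against 11.91, 11.95 and 11.94 with scramble, and the change of -0.13 (SE 0.03, adjusted p = 0.00663) was small. A further probe set of TOP1 gave 0.18 without passing. Averaged over both, TOP1 differed by 0.03 (adjusted p = 0.904).

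The 4 chromatin genes all rose, with a median of 0.94. CHAF1A, the large subunit of chromatin assembly factor 1, had 9.44, 9.44 and 9.46 with HDAC5 shRNA, against 8.23, 7.94 and 7.99 with scramble (1.39, SE 0.07), and 2 further probe sets gave 1.37 and 1.504. Its partner CHAF1B had 7.42, 7.49 and 7.56, against 6.10, 6.49 and 6.35 (1.17, SE 0.09). DNMT1, which copies DNA methylation onto the new strand, had 10.91, 10.94 and 10.90, against 10.20, 10.23 and 10.21 (0.70, SE 0.04). SLBP, which binds histone mRNA, rose by a like amount (0.67, SE 0.04).

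**Figure D2:**
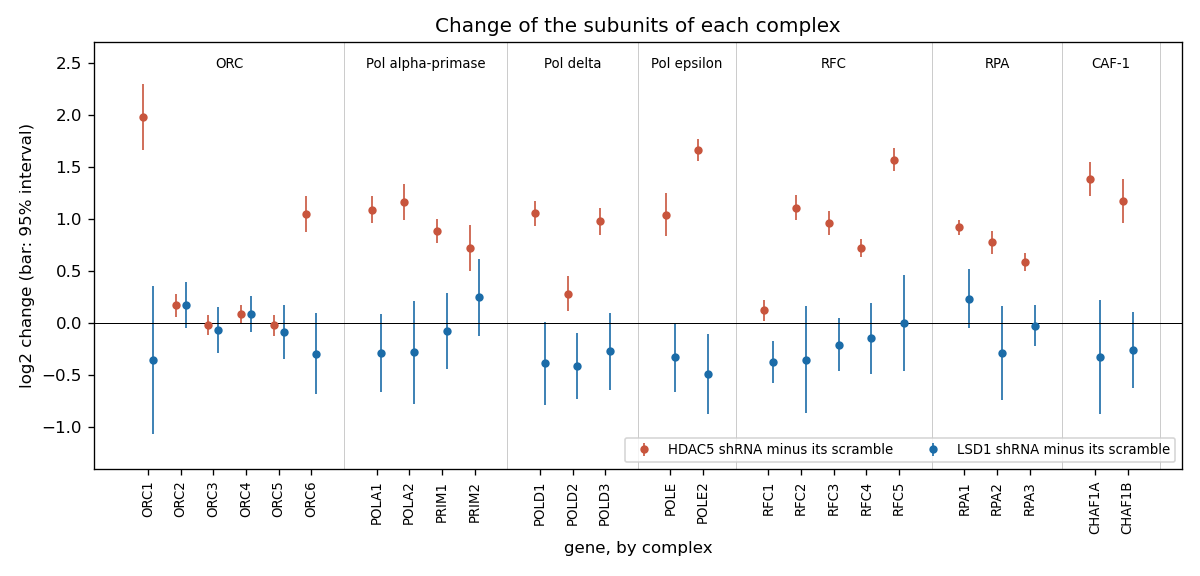
Log2 change (y axis, bars are 95% intervals) of the subunits of each replication complex, for HDAC5 shRNA minus its scramble (left point of a pair) and LSD1 shRNA minus its scramble (right point), 3 arrays against 3 each. With HDAC5 shRNA the subunits of ORC ran from -0.02 to 1.98 and those of RFC from 0.12 to 1.57, while those of RPA ran from 0.59 to 0.92.

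Other replication genes were counted beside the members, from a list that leaves the members out. All 11 genes of the helicase (MCM, CDC45 and GINS) rose, with a median of 1.73, and 24 of 33 further replication genes rose while 4 fell. The largest rises were in GINS2 (2.65, SE 0.08), CDC45 (1.95, SE 0.07) and MCM5 (1.90, SE 0.07), all parts of the helicase that opens the fork. The 4 that fell were POLD4, the small polymerase delta subunit (-0.73, SE 0.07), the repair genes POLB (-0.38, SE 0.05) and XRCC1 (-0.36, SE 0.06), and TOP2B (-0.15, SE 0.05). The choice of these 4 for naming followed their values. Of 22 mitosis genes, 22 rose, with a median of 0.85. Beside these counts, 21.3% of all genes were called higher and 23.2% lower.

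Some technical and marker values also differed between HDAC5 shRNA and its scramble, while others overlapped. For ACTB, the gap between 3′ and 5′ control signals, which widens as RNA degrades, was 0.684 ± 0.078 (SD, n = 3) with HDAC5 shRNA and 0.900 ± 0.059 with scramble, or -0.22 between them (two-sided exact permutation p = 0.1, and 3 arrays against 3 can give no smaller p). For GAPDH it was 0.017 ± 0.016 and 0.034 ± 0.002 (exact permutation p = 0.2). Of 8 fibroblast and endothelial markers 3 fell and none rose, and their summed level was 8.74 to 8.85 (log2) with HDAC5 shRNA and 9.08 to 9.10 with scramble. Of these 8, 4 were below the lower quartile of genes on every array. The summed level of the 6 marker genes of the line was 14.82 to 14.86 with HDAC5 shRNA and 14.70 to 14.72 with scramble, and 3 of them rose while EGFR fell (-0.78). For 5 blood markers, 3 of them below the lower quartile on every array, it was 7.46 to 7.69 with HDAC5 shRNA and 7.60 to 7.69 with scramble, and for 8 luminal markers 11.20 to 11.30 and 11.17 to 11.29. No blood marker was called, and of the luminal markers 2 rose and 1 fell. Beside these marker counts, 21.3% of all genes were called higher and 23.2% lower. The part of the technical and marker values in the result was not tested.

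With LSD1 shRNA, no member of the list passed the threshold, where 2.93% of all genes were called higher and 2.00% lower. At an unadjusted p under 0.05 there were 7 of 41 members, against 2629 of all 11963 genes. In 1 fit of all 12 arrays limma called 5 members lower and 1 higher, and 2297 of all genes in either direction. The median change was -0.25, against 0.01 for all genes, and 34 of 41 members had a change below 0. All 3 LSD1 shRNA arrays lay below all 3 scramble arrays for 12 members and above them for 2. Among all genes the shares were 12.7% and 14.3%.

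Much of that shift sat on 1 array. The median of the members relative to the scramble mean was -0.53 on LSD1 shRNA replicate 2, against -0.09 and 0.00 on replicates 1 and 3. On replicate 2, 36 of 41 members were below all 3 scramble arrays and 3 were above them. Replicate 1 had 21 below and 9 above, and replicate 3 had 14 below and 14 above. Such shares for single arrays were not computed over all genes. Without replicate 2 the median change was -0.05. The members' SD with LSD1 shRNA had a median of 0.31, against 0.07 with scramble, while for all genes these medians were 0.13 and 0.11. The median offset of the 22 mitosis genes was also lowest on this array, at -0.58, against -0.03 and -0.26.

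**Figure D3:**
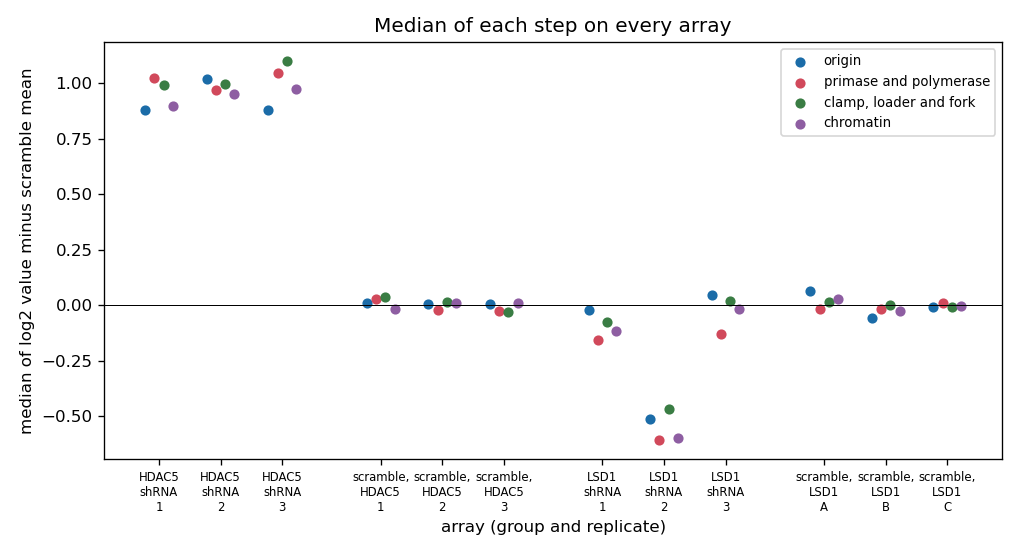
Median over the members of each step of the log2 value minus the scramble mean of the experiment (y axis), on each of the 12 arrays (x axis). All steps lie between 0.88 and 1.10 on the 3 HDAC5 shRNA arrays, between -0.61 and -0.47 on LSD1 shRNA replicate 2, and between -0.16 and 0.05 on LSD1 shRNA replicates 1 and 3.

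At the origin step 0 of 12 genes passed with LSD1 shRNA and the median was -0.11. MCM10 had 10.75, 9.55 and 10.78 with LSD1 shRNA, against 11.19, 10.96 and 11.05 with scramble (-0.70, SE 0.32, adjusted p = 0.265). All 3 arrays were below scramble, with replicate 2 more than a log2 unit under the others, and without it the change was -0.30. CDC6 had 10.02, 8.74 and 10.04, against 10.19, 10.02 and 10.17 (-0.53, SE 0.34), and ORC1 had 7.995, 6.84 and 7.95, against 7.96, 7.94 and 7.94 (-0.35, SE 0.30). Without replicate 2 these came to -0.10 for CDC6 and 0.02 for ORC1. The core subunit ORC2 had 9.55, 9.52 and 9.69 with LSD1 shRNA, against 9.47, 9.36 and 9.41 with scramble (0.17, adjusted p = 0.331).

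Among primase and polymerase genes the median was -0.28. POLE2 had 10.70, 10.19 and 10.81 with LSD1 shRNA, against 10.98, 11.08 and 11.11 with scramble (-0.49, SE 0.16, adjusted p = 0.144, or 0.0179 in 1 fit of all 12 arrays). POLD2 had 9.52, 9.41 and 9.67, against 10.18, 9.83 and 9.81 (-0.41, SE 0.13, adjusted p = 0.136, or 0.0261 in the 12-array fit). Both were below scramble on all 3 arrays. The 12-array fit uses 1 spread per gene for all 4 groups. The members' median SD was 0.05 with HDAC5 shRNA and 0.07 with its scramble. It was 0.31 with LSD1 shRNA and 0.07 with its scramble. The adjusted p of that fit for an LSD1 change thus rests partly on the tighter HDAC5 arrays. PRIM2 was the 1 gene of this step with a change above 0 (0.25, SE 0.16).

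Among clamp, loader and fork genes the median was -0.22, and the members nearest the threshold were RFC1 and LIG1. RFC1 did not follow replicate 2: it had 9.06, 8.99 and 9.01 with LSD1 shRNA, against 9.41, 9.43 and 9.33 with scramble (-0.37, SE 0.08, adjusted p = 0.059). It passed in 1 fit of all 12 arrays (0.0016), with no mean-variance trend (0.033) and with dim genes left out (0.0482), and a further probe set of RFC1 gave -0.48 (0.037 over all probe sets). LIG1 had 9.15, 8.49 and 9.22, against 9.54, 9.69 and 9.76 (-0.71, SE 0.20, adjusted p = 0.1), and passed without replicate 2 (-0.48, adjusted p = 0.0448) and in the 12-array fit (0.00825).

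RPA1 had 12.45, 12.003 and 12.42 with LSD1 shRNA, against 12.04, 12.02 and 12.10 with scramble, so that 2 arrays were above scramble and replicate 2 just below it. Its change was 0.24 (SE 0.12, adjusted p = 0.315) with all arrays and 0.38 (adjusted p = 0.0159) without replicate 2. TOP1 had 12.10, 12.01 and 12.07, against 11.95, 11.93 and 11.92 (0.13, adjusted p = 0.221, or 0.0426 in the 12-array fit), with no overlap, but its further probe set gave -0.47 and did not pass. Among chromatin genes, SLBP had 11.42, 11.13 and 11.53, against 11.75, 11.69 and 11.73 (-0.37, SE 0.11, adjusted p = 0.108, or 0.00899 in the 12-array fit). CHAF1A, CHAF1B and DNMT1 lay between -0.32 and -0.14. The 95% intervals were wide for many members, as from -1.06 to 0.36 for ORC1 and from -0.44 to 0.21 for PCNA, so these arrays did not resolve changes inside those bounds.

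Outside the list, 3 of 33 further replication genes fell with LSD1 shRNA, where 2.00% of all genes were called lower. None of the 11 helicase genes passed. The 3 that fell were RNASEH2B, a partner of RNASEH2A (-1.05, SE 0.19, adjusted p = 0.029), MCM9 and the histone chaperone subunit RBBP4. MCM9 (-0.58, SE 0.13, adjusted p = 0.0498) and RBBP4 (-0.41, SE 0.08, adjusted p = 0.0437) were close to the threshold. In this experiment the ACTB gap between 3′ and 5′ signals was 1.43 ± 0.12 (SD, n = 3) with LSD1 shRNA and 1.30 ± 0.06 with scramble (exact permutation p = 0.2, two-sided), and that of GAPDH 0.042 ± 0.029 and 0.001 ± 0.008 (exact permutation p = 0.1). The summed level of 5 blood markers was 8.05 to 8.13 (log2) with LSD1 shRNA and 7.72 to 7.91 with scramble, with 3 of the 5 below the lower quartile on every array. That of fibroblast and endothelial markers was 9.18 to 9.32 with LSD1 shRNA and 9.15 to 9.19 with scramble, and that of luminal markers 11.48 to 11.71 and 11.24 to 11.61. Of the luminal markers CDH1 rose (2.22, adjusted p = 0.00144) and of the fibroblast and endothelial markers LUM rose (1.54, adjusted p = 0.019), with no other call in these lists and none among blood markers. Among the marker genes of the line, summed at 15.01 to 15.17 with LSD1 shRNA and 15.13 to 15.22 with scramble, EGFR fell (-1.02) and KRT8 rose (0.49). Their part in the result was not tested.

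The changes were then set against each other in 1 fit of all 12 arrays, as the change with HDAC5 shRNA minus the change with LSD1 shRNA. This difference passed upward for 35 of 41 members and downward for 1, where 15.7% and 16.1% of all genes passed. Its median was 1.25 for the members (1.08 without LSD1 shRNA replicate 2) and -0.03 for all genes. The members that did not pass were the ORC core, ORC2 (-0.002), ORC3 (0.05), ORC4 (0.001) and ORC5 (0.07), and PRIM2 (0.47, adjusted p = 0.0929). TOP1 was the only member that passed with a negative difference (-0.25, SE 0.06, adjusted p = 0.00456). Across the 41 members the changes had a Pearson correlation of -0.57 and a Spearman correlation of -0.52, and Pearson's over all genes was -0.19. Members share arrays, so these values describe the list only. The LSD1 changes in them include LSD1 shRNA replicate 2, and the correlations without that array were not computed.

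**Figure D4:**
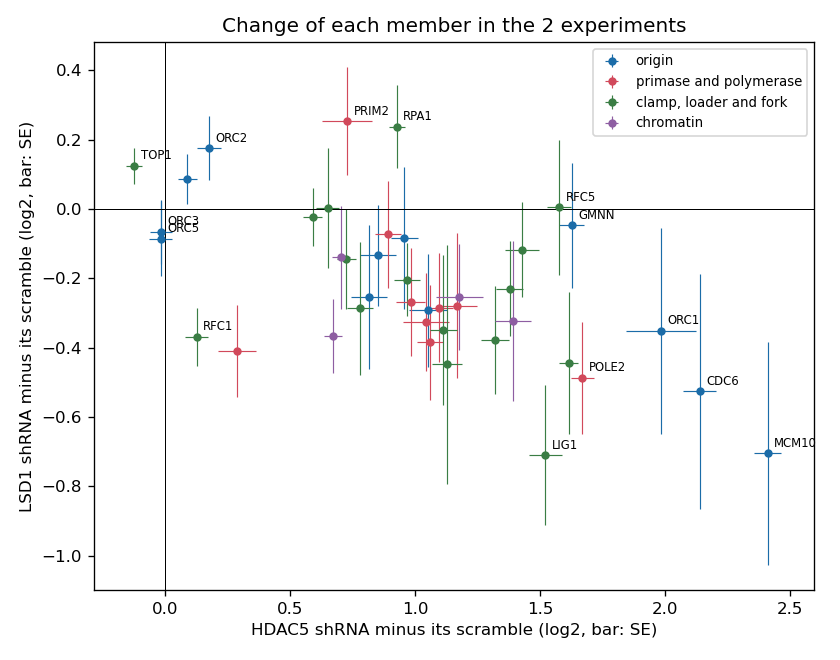
Change of each of the 41 members with HDAC5 shRNA (x axis) and with LSD1 shRNA (y axis), each against its own scramble arrays, in log2 units with SE bars and coloured by step. MCM10, CDC6 and ORC1 lie farthest right and below 0, and the ORC core subunits lie near the origin of both axes.

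Levels cannot be tested across experiments, since the array medians differed (6.59 to 6.65 in the HDAC5 experiment and 7.05 to 7.16 in the LSD1 experiment). As a description within each array, the median percentile of the members among all genes was 77.6, 78.1 and 79.5 on HDAC5 shRNA arrays, against 67.9, 67.1 and 65.5 on its scramble arrays. It was 80.4, 70.1 and 81.9 on LSD1 shRNA arrays, against 82.1, 79.9 and 80.4 on theirs. LSD1 shRNA replicate 2 and the 3 scramble arrays set against HDAC5 shRNA thus held the 4 lowest positions of the 12.

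The members were also compared by their promoters. RefSeq windows of GRCh38.p14, from 250 bases before to 50 after a gene's start, were at hand for 38 of the 41, and a gene with several starts counted once if any window matched. They were searched on both strands for the E2F-type motifs TTCCCGC or TTGGCGC or TTCGCGC, which can overlap each other, for the NF-Y box CCAAT, which can overlap TTGGCGC, and for TTTGAA, the core of an element of genes of late cell cycle. An E2F-type match was present for 25 of 38 members (65.8%), against 19.6% of 9563 measured genes with a window and 11.0% of all 35116 windows. CCAAT was present for 20 (52.6%), against 44.2% of measured genes and 34.6% of windows. TTTGAA was present for 2 (5.3%), DBF4 and UNG, against 15.6% and 15.2%.

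Members with an E2F-type match had a median change with HDAC5 shRNA of 1.11, and 24 of 25 rose. The 13 without had a median of 0.73, and 10 rose. Of all genes, 21.3% were called higher. Changes of the other measured genes were not split by motif, so these values describe the members only. The ranges overlapped: MCM10 and FEN1 had no match in this window, and ORC3 and RFC1, with changes of -0.02 and 0.12, each had a match. Matches are letters in a window and not tested binding sites. The windows below are 60 bases upstream of the start around the match, on the strand of the gene, with matched letters in capitals. The first 5 are the members with the largest changes that have a match upstream of the start, and ORC3 is shown as a member with a match and little change.
ORC1, chr1:52404424-52404483, minus strand: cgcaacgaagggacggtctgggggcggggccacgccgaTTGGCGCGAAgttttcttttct
GMNN, chr6:24775307-24775366, plus strand: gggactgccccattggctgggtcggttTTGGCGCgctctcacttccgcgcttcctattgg
LIG1, chr19:48170425-48170484, minus strand: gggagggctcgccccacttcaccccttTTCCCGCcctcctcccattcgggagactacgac
PCNA, chr20:5126649-5126708, minus strand: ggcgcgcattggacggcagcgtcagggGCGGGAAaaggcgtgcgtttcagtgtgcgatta
CHAF1A, chr19:4402576-4402635, plus strand: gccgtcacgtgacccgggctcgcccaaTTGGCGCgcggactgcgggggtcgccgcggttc
ORC3, chr6:87590075-87590134, plus strand: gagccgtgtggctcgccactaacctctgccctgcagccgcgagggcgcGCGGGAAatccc
In ORC1 a pair of matches on opposite strands overlap within TTGGCGCGAA, 22 bases before the start, while in GMNN and CHAF1A TTGGCGC stands on the strand of the gene. PCNA and ORC3 carry the reverse complement of the TTCCCGC motif. A CCAAT box, read as attgg on the other strand, can share letters with TTGGCGC. It does so in the printed windows of ORC1 and CHAF1A, while in those of GMNN and PCNA attgg stands apart from the capitals.

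**Figure D5:**
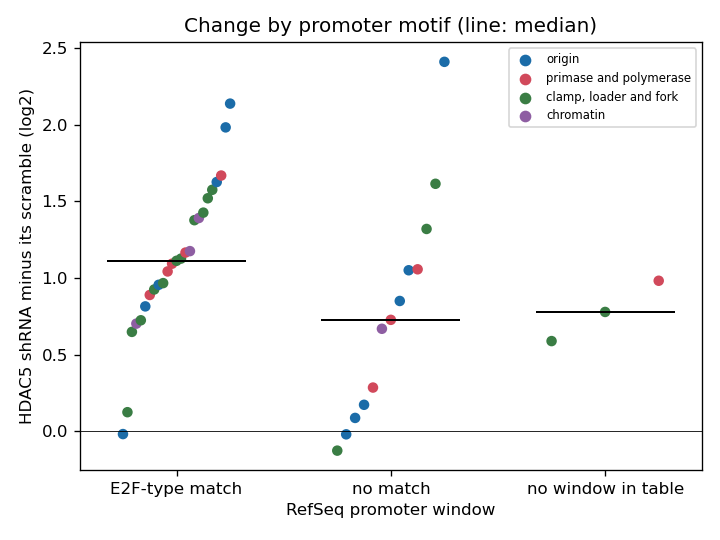
Change with HDAC5 shRNA minus its scramble (log2, y axis) of the 41 members by whether their RefSeq promoter window holds an E2F-type match (25 members), holds none (13) or was not at hand (3); points are genes coloured by step, and lines are medians. The median is 1.11 with a match and 0.73 without, and the ranges overlap.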

How the data were processed

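The authors deposited log2 values, 1 per probe set and array, made with RMA in the affy package per the submitters' processing notes. RMA equalises the arrays it is given and compresses small ratios at low signal. The notes used here name no versions and do not say whether all 12 arrays were normalized together. The untagged scramble set was taken as the control of HDAC5 shRNA, since the other set carries the LSD1 tag. Of 22277 probe sets, 62 controls were left out, and 19064 with 1 gene symbol were used. Their symbols were updated through gene IDs to RefSeq (GRCh38.p14), which matched 19052. Each gene was represented by its brightest probe set, averaged over 12 arrays, with no filter on dim genes.

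Each shRNA was compared with its own scramble set in a fit of those 6 arrays, across all 11963 genes, using R 4.3.3 and limma 3.58.1 (lmFit and eBayes, trend on), tested on simulated data first. The number of arrays limits the precision. Replicate numbers are shared by both groups of the HDAC5 experiment. Deviations of same-numbered arrays correlated at -0.05, -0.21 and -0.15, and those of other pairs at up to 0.16. These values gave no sign of a pairing, which 3 arrays a group cannot exclude. No pairing was used in the main fit. The members and lists were chosen with earlier results of these data known. Named were all members, the targets, and the 3 other replication genes with the largest called change for each shRNA against its scramble. The plan also covered the difference between the changes, for which no other replication gene was named. Genes of a small count (the 4 other replication genes that fell with HDAC5 shRNA, and called marker genes) were named after their values were seen. The alternatives were 1 fit of 12 arrays, the mean of probe sets, leaving out dim genes (below the lower quartile), quantile normalization, no trend, a replicate block and leaving out each array. A planned search of protein sequences was not run.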

Additional observations from a re-analysis of the deposited data

Results flagged for a closer look

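For 36 members the change with HDAC5 shRNA differed from the change with LSD1 shRNA by the test of the difference itself (limma, 1 fit of 12 arrays, adjusted p under 0.05). This fit uses 1 spread per gene, although the members' median SD was 0.31 with LSD1 shRNA and 0.05 to 0.07 in the other groups. Without LSD1 shRNA replicate 2, 35 members passed upward and 1 downward, and the members' median difference was 1.08 instead of 1.25. The sizes given here include that array. Among origin genes the difference, HDAC5 change minus LSD1 change in log2 units, was 3.11 for MCM10, 2.66 for CDC6, 2.33 for ORC1, 1.67 for GMNN, 1.34 for ORC6, 1.07 for CDT1, 1.04 for CDC7 and 0.98 for DBF4. Among primase and polymerase genes it was 2.15 for POLE2, 1.44 for POLA2, 1.44 for POLD1, 1.38 for POLA1, 1.37 for POLE, 1.25 for POLD3, 0.96 for PRIM1 and 0.69 for POLD2.

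Among clamp, loader and fork genes the difference was 2.23 for LIG1, 2.06 for FEN1, 1.70 for RNASEH2A, 1.61 for TIMELESS, 1.57 for TIPIN, 1.57 for RFC5, 1.54 for PCNA, 1.46 for RFC2, 1.17 for RFC3, 1.06 for RPA2, 0.87 for RFC4, 0.69 for RPA1, 0.65 for UNG, 0.61 for RPA3, 0.49 for RFC1 and -0.25 for TOP1. Among chromatin genes it was 1.71 for CHAF1A, 1.43 for CHAF1B, 1.03 for SLBP and 0.84 for DNMT1. The experiments share no array, and a fixed offset of a gene between them cancels in this difference.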

How the results depend on the processing

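The count of members that rose with HDAC5 shRNA, 37, was 34 to 38 in all other settings, and 35 with the replicate number as a replicate block, which removed ORC2 (adjusted p = 0.0538) and RFC1 (0.151) and left 4869 genes called of 5319. The median change was 1.04 with the mean of probe sets, under which TOP1 turned (0.0261, and 0.199 in the difference between experiments) and 0 members were called lower in either. In 1 fit of 12 arrays 3512 genes were called with HDAC5 shRNA and 2297 with LSD1 shRNA, against 589. With LSD1 shRNA, 104 to 786 genes were called when an array was left out. The count of members called lower was 0 as reported, 5 in the 12-array fit, 1 with dim genes left out, 1 with no trend, and 0 to 1 with an array left out, and that of members called higher was 1 in the 12-array fit and 0 to 1 with an array left out. For the difference between changes, 34 to 36 members passed upward in all settings, where UNG lost its call without HDAC5 shRNA replicate 2 (adjusted p = 0.0543). The cause of these shifts was not tested.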
